A study of Mus musculus with 4 samples.

Results

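Nos2 and 6 genes of the epithelial NADPH oxidases, Nox1, Noxo1, Noxa1, Duox2, Duoxa2 and Cyba, were followed through single-cell RNA of mouse colonic organoids (colonoids), which are 3-dimensional cultures grown in a gel from fragments of the distal colon. The members were found by symbol, and all 7 were among the 30360 genes of the deposited table. They were chosen by their levels in these same libraries, in which several had been seen to differ with TNF (tumor necrosis factor) or genotype, so every value is a description and not a test. The cultures came from wildtype mice and from Tnfr2-/- mice, which lack TNF receptor 2 in every cell of the body and not only in the epithelium, both aged 16 weeks per the labels. The wildtype untreated and Tnfr2-/- untreated cultures received vehicle, and the wildtype TNF and Tnfr2-/- TNF cultures received 20 ng/ml TNF from day 1 to day 6 after passage 5. All were harvested on day 7 after removal of apoptotic cells, and each of the 4 groups was 1 sample and 1 library, so no difference below has a replicate check and no p-value is given.

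Inducible nitric oxide synthase, the product of Nos2, makes nitric oxide from arginine and is a known product of epithelial and myeloid cells under inflammation. NADPH oxidases pass electrons from NADPH to oxygen at a membrane, which yields superoxide or hydrogen peroxide. Nox1 is the catalytic subunit typical of the colonic crypt and works with the membrane partner encoded by Cyba (p22phox), the organizer Noxo1, the activator Noxa1 and the small GTPase Rac1. Duox2 is the catalytic subunit known for hydrogen peroxide release at the apical surface, and it needs the maturation factor Duoxa2 to leave the endoplasmic reticulum, but not Cyba.

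The libraries held 980 to 2589 cells and 44547639 to 87228093 unique molecular identifiers (UMIs), of which 858 to 1163 cells a library belonged to the 7 epithelial classes of the deposited annotation and the rest almost all to 4 mesenchymal (fibroblast) classes. A level is given as CPM, the UMIs of a gene for each 1000000 UMIs of the cells summed, and intervals are 95% exact Poisson intervals that cover counting error only. Where 4 values follow one another, both wildtype libraries come first and both Tnfr2-/- libraries last, each time the untreated culture before the one with TNF. Epithelial markers (Epcam, Krt8, Krt18, Cdh1, Cldn7 and Vil1) summed to 8394 to 10490 CPM in the epithelial cells and 112.5 to 587.5 CPM in the mesenchymal cells. The leukocyte gene Ptprc was at 0 in all mesenchymal sums and in Tnfr2-/- TNF epithelium. Immune cell markers were far below the epithelial markers in the epithelial cells. They summed to 2.90 to 20.4 CPM over 8 genes, with 1 to 3 of them at 0. The sum was highest in Tnfr2-/- TNF, as was Nos2, and its part in the Nos2 level was not tested. The epithelial makeup differed widely: Progenitor.1 was 48.4%, 28.8%, 63.2% and 11.1% of epithelial cells, and Progenitor.2 was 5.5%, 23.5%, 22.8% and 83.4%. Tnfrsf1b, the targeted gene, was at 4.17, 12.1, 1.82 and 6.89 CPM in the epithelium. It was lower in Tnfr2-/- at either treatment but not absent, and since the position of the deletion relative to the counted 3' end was not known here, this does not check the labels.

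Nos2 (ENSMUSG00000020826; chromosome 11, 78920787 to 78960254, plus strand, GENCODE M21 on GRCm38, as for all positions here) had the widest range of levels among the members. Its epithelial level was 1.63, 139, 34.0 and 260 CPM, from 82, 5735, 1722 and 10330 UMIs. The intervals of the 4 libraries did not overlap, and Tnfr2-/- TNF was the highest and wildtype untreated the lowest. With TNF, Nos2 was 85.1 times higher in wildtype (interval 68.5 to 107) and 7.64 times higher in Tnfr2-/- (7.26 to 8.04). Without TNF, the Tnfr2-/- culture already had 20.9 times the wildtype level (16.7 to 26.4), whereas under TNF the ratio of the genotypes was 1.87 (1.81 to 1.93).

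**Figure D1:**
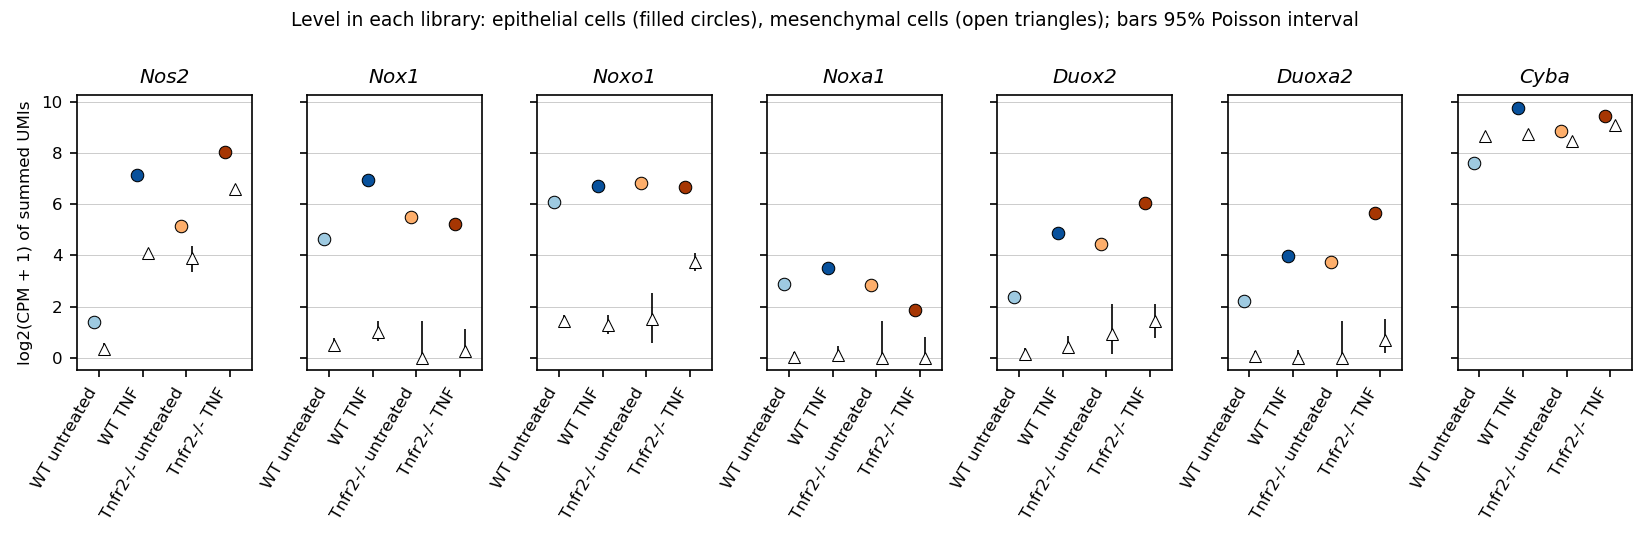
Level of each gene as log2(CPM + 1) on the y axis, by library on the x axis, summed over epithelial cells (filled circles) or mesenchymal cells (open triangles), with 95% Poisson intervals as bars. Nos2 spans 1.63 to 260 CPM in the epithelium and reaches 95.6 CPM in Tnfr2-/- TNF mesenchymal cells, where Nox1 and Noxa1 stay at or near 0.

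In sums over all epithelial cells, fewer cells of a class and less RNA per cell cannot be told apart, so levels within classes follow. Within the epithelium Nos2 was concentrated in Progenitor.2. There its level was 10.7, 291, 120 and 296 CPM, against 0.869, 82.4, 13.6 and 63.4 CPM in Progenitor.1. Wildtype TNF and Tnfr2-/- TNF had overlapping intervals within Progenitor.2 (282 to 301 and 290 to 302 CPM), with a ratio of 1.02 (0.978 to 1.06). In Progenitor.1 the ratio of these libraries was 0.770 (0.680 to 0.868), with Tnfr2-/- TNF the lower one. Progenitor.2 held 64.4%, 69.1% and 96.6% of the epithelial Nos2 UMIs in the 3 libraries other than wildtype untreated, with 30.7%, 19.6% and 84.8% of all epithelial UMIs. The other classes of wildtype TNF epithelium with at least 20 cells lay lower, at 3.45 CPM in Enteroendocrine, 29.2 CPM in Progenitor.3, 39.2 CPM in Secretory-Reg4-Ang4 and 49.6 CPM in Secretory-Reg4-Spdef-Lyz1, and the Absorptive class, with 19 cells, was at 168 CPM.

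Single cells showed the same order of classes. After each cell was thinned at random to 5000 UMIs, a Nos2 UMI was found in 5.36%, 60%, 35.1% and 56.3% of Progenitor.2 cells and in 0.549%, 29.6%, 4.81% and 18.1% of Progenitor.1 cells. Without thinning, the shares were 6.45%, 84.2%, 50.6% and 83.1% in Progenitor.2 and 2.93%, 71.9%, 21.3% and 56.8% in Progenitor.1. Progenitor.2 of wildtype untreated was small and shallow, with 62 cells and a median of 15574.5 UMIs, against medians of 33685 to 39167 UMIs in the other libraries. Nos2 was unequally spread among cells of Progenitor.2: in Tnfr2-/- TNF the lower and upper quartiles of single-cell CPM were 36.0 and 455, the highest cell had 144 UMIs, and the top 10% of cells held 41.9% of the Nos2 UMIs. In Tnfr2-/- untreated the top 10% held 61.8%. Cells were ranked by UMIs without thinning, so depth enters these shares. By the same ranking in Tnfr2-/- TNF, the top 10% held 32.8% of Cyba, 36.4% of Noxo1 and 48.9% or more of each remaining member. In Tnfr2-/- untreated it held 42.5% of Cyba, 38.1% of Noxo1 and 59.8% or more of each remaining member.

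**Figure D2:**
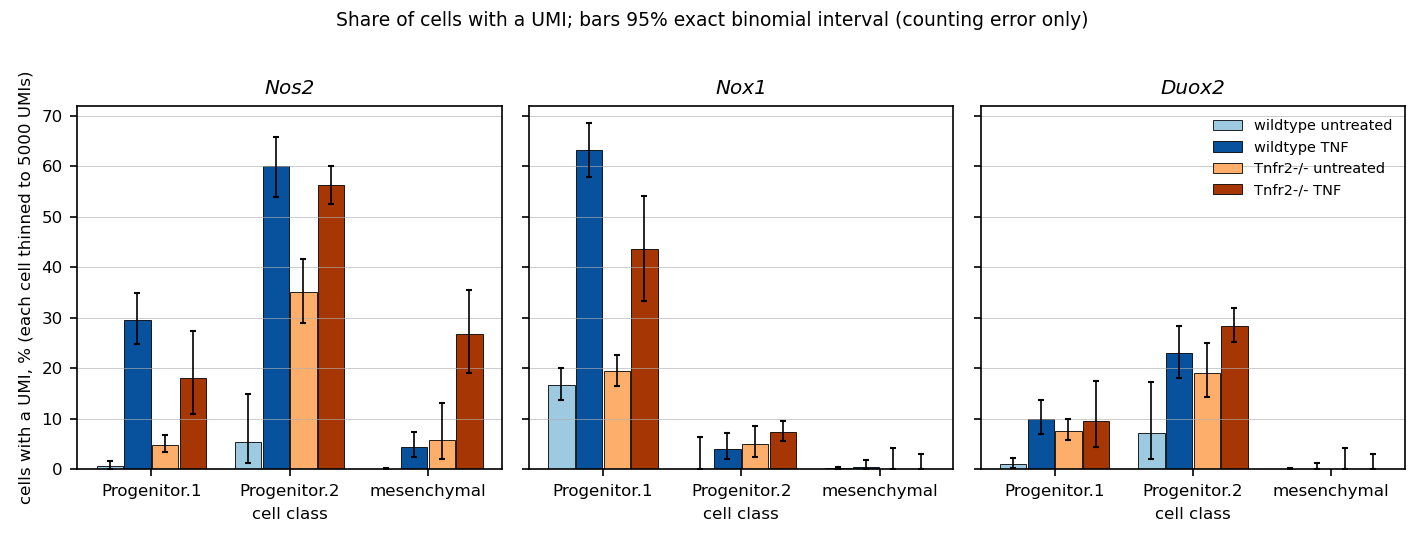
Share of cells with at least 1 UMI of Nos2, Nox1 or Duox2 on the y axis, after thinning each cell to 5000 UMIs, by cell class on the x axis and by library in colours; bars are 95% exact binomial intervals. Nos2 and Duox2 are found in more Progenitor.2 than Progenitor.1 cells, and Nox1 in up to 63.3% of Progenitor.1 cells (wildtype TNF) but at most 7.32% of Progenitor.2 cells.

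Nos2 was the only member besides Cyba that reached 20 CPM in the fibroblasts of a library. The mesenchymal level was 0.259, 16.0, 13.8 and 95.6 CPM, from 9, 235, 30 and 456 UMIs. With TNF or without TNFR2 nearly all of it lay in Mesenchyme-Ptges, the fibroblast class named for a prostaglandin E synthase, with 234, 28 and 456 UMIs in wildtype TNF, untreated Tnfr2-/- and Tnfr2-/- TNF (16.0, 33.6 and 95.6 CPM). This class was 304 of 306 fibroblasts in wildtype TNF and all 122 in Tnfr2-/- TNF, so the UMIs there had hardly another class to lie in. In untreated Tnfr2-/- it was 37 of 90 fibroblasts, and the 51 cells of Mesenchyme-generic were at 1.53 CPM. In wildtype untreated none of 34 cells of this class had a Nos2 UMI, which allows up to 8.76 CPM, and the 892 cells of Mesenchyme-Ifitm1 were at 0.375 CPM. The Tnfr2-/- TNF fibroblasts had 5.98 times the level of wildtype TNF fibroblasts (5.10 to 7.03). Thinned to 5000 UMIs, 26.7% of mesenchymal cells of Tnfr2-/- TNF had a Nos2 UMI, against 0% (up to 0.212%), 4.36% and 5.81% in the other libraries.

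Epithelial RNA in these fibroblasts was measured beside this. In Tnfr2-/- TNF the mesenchymal level of Nos2 was 36.8% of the epithelial level, while for the 6 epithelial markers this share ran from 4.06% (Epcam) to 10.3% (Krt18), and it was 12.4% for Noxo1, 2.57% for Duox2 and 0.571% for Nox1. In untreated Tnfr2-/- it was 40.5% for Nos2 and 0.724% (Krt8) to 2.19% (Epcam) for the markers. In wildtype TNF it was 11.5% for Nos2, 10.7% for Krt18 and 0.423% to 0.571% for the other 5 markers. Within Mesenchyme-Ptges of Tnfr2-/- TNF, the 66 cells with a Nos2 UMI had 275 CPM of Krt8 and 155 CPM of Epcam, and the 56 cells without had 182 and 32.1 CPM. In wildtype TNF the 45 cells with a Nos2 UMI had 15.5 CPM of Krt8 and 11.1 CPM of Epcam, and the 259 without had 17.5 and 10.1 CPM. In untreated Tnfr2-/- the 11 cells with a Nos2 UMI had 3.72 CPM of Krt8 and 11.2 CPM of Epcam, and the 26 without had 12.4 and 5.32 CPM. Both markers were thus higher in the fibroblasts with Nos2 in Tnfr2-/- TNF. In wildtype TNF they were close in the cells with and without Nos2. In untreated Tnfr2-/- the 11 cells hold too few counts for an order to be read. No interval was computed for these values. The 8 immune markers summed to 1.35, 4.76, 2.30 and 24.7 CPM in the mesenchymal cells, with 5, 4, 4 and 5 of them at 0, and this sum too was highest in Tnfr2-/- TNF. Its part in the fibroblast Nos2 was not tested. How much of the fibroblast Nos2 came from epithelial RNA was not tested.

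Nox1 (ENSMUSG00000031257; chromosome X, 134086421 to 134221956, minus strand) followed another class. It was highest in Progenitor.1, at 40.0, 226, 56.1 and 134 CPM, and next in Progenitor.3, a class of low-depth cells, at 23.9, 153 and 52.8 CPM in the 3 libraries with at least 20 such cells. In Progenitor.2 it was at 0, 8.12, 9.79 and 22.5 CPM, where the 0 of wildtype untreated allows up to 1.79 CPM. In the 319 Absorptive cells of wildtype untreated it was at 1.06 CPM. The mesenchymal cells had 0 to 1.02 CPM.

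The level of Nox1 over all epithelial cells did not describe its level within the classes. Over all epithelial cells it was 23.8, 121, 44.2 and 36.7 CPM, which made it 5.08 times higher with TNF in wildtype (4.77 to 5.41) but 0.831 times the untreated level with TNF in Tnfr2-/- (0.777 to 0.888). Within Tnfr2-/- Progenitor.1, by contrast, it was 2.39 times higher with TNF (2.19 to 2.61), and within Tnfr2-/- Progenitor.2 2.30 times higher (1.86 to 2.87). The Progenitor.1 class, which held 92.1% of epithelial Nox1 UMIs in Tnfr2-/- untreated, gave 72.5% of epithelial UMIs there and 12.9% in Tnfr2-/- TNF. With Progenitor.1 and Progenitor.2 given equal weight, an average that removes the difference in their numbers, the TNF difference of Nox1 in Tnfr2-/- was 1.22 on the log2(CPM + 1) scale rather than -0.26. The genotype ratio under TNF was 0.304 over all epithelial cells (0.287 to 0.323), 0.594 within Progenitor.1 (0.547 to 0.644) and 2.77 within Progenitor.2 (2.26 to 3.44).

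**Figure D3:**
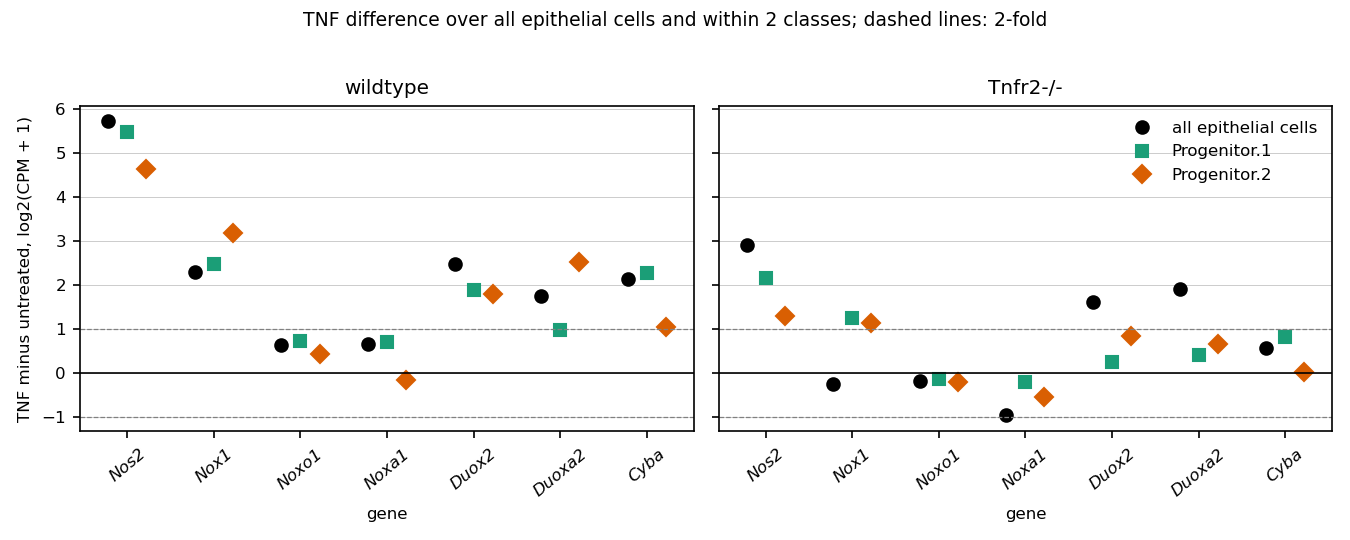
TNF minus untreated difference in log2(CPM + 1) on the y axis for each gene on the x axis, in wildtype (left) and Tnfr2-/- (right), over all epithelial cells, within Progenitor.1 and within Progenitor.2; the dashed lines mark 2-fold. In Tnfr2-/-, Nox1 is at -0.26 over all epithelial cells but at 1.24 and 1.12 within the classes, and Duox2 and Duoxa2 are at 1.61 and 1.90 over all epithelial cells but below 1 within the classes.

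The share of cells with Nox1 had the same order of classes. After thinning, 16.7%, 63.3%, 19.4% and 43.6% of Progenitor.1 cells had a Nox1 UMI, and 0%, 4.07%, 4.89% and 7.32% of Progenitor.2 cells. The median Progenitor.1 cell of wildtype TNF had 219 CPM of Nox1 and that of Tnfr2-/- TNF 91.2 CPM, while in wildtype untreated the median cell had none. Nos2 and Nox1 UMIs had no common order in single Progenitor.1 cells. In wildtype TNF, 59.6% of the 99 thinned cells with Nos2 had Nox1, against 64.8% of the 236 without. The shares were 22.6% of 31 against 19.2% of 613 in untreated Tnfr2-/- and 41.2% of 17 against 44.2% of 77 in Tnfr2-/- TNF.

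The 2 cytosolic partners of Nox1 differed from it and from each other. Noxo1 (ENSMUSG00000019320; chromosome 17, 24696234 to 24700529, plus strand), the organizer, was the flattest member. Its epithelial level was 67.6, 105, 113 and 99.4 CPM, with wildtype untreated below the others, and wildtype TNF and Tnfr2-/- TNF with overlapping intervals (102 to 108 and 96.3 to 103). Over 19 epithelial class and library groups of at least 20 cells it ranged from 12.2 CPM in Enteroendocrine cells to 116 CPM, with a median of 78.0, and Progenitor.1 and Progenitor.2 had nearly the same values (66.3, 111, 116 and 104 CPM, and 78.0, 105, 116 and 100 CPM). Noxo1 overlaps Tbl3 on the other strand. The sources used here do not state a strand setting for the counting, so reads of such a pair may not have been told apart. The same limit holds for the overlaps of Nox1 with Cstf2 and Arl13a, Noxa1 with Entpd8 and Duoxa2 with Duoxa1, and Nox1 also overlaps Xkrx on its own strand.

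Noxa1 (ENSMUSG00000036805; chromosome 2, 25085667 to 25095149, minus strand), the activator, was sparse at 6.28, 10.4, 6.10 and 2.64 CPM and never reached the 20 CPM that was asked of a gene before a change was counted. Like Nox1 it was higher in Progenitor.1 (8.58, 14.6, 7.19 and 6.05 CPM) than in Progenitor.2 (5.96, 5.20, 3.63 and 2.16 CPM), with overlapping intervals of the classes in wildtype untreated and separate ones in the other 3 libraries. Under TNF the Tnfr2-/- epithelium had 0.254 times the wildtype level of Noxa1 (0.204 to 0.316), and 0.415 times within Progenitor.1 (0.276 to 0.603). The genes within 5 Mb of Noxa1 had a median genotype difference of 0.55 untreated and 0.41 with TNF on the log2 scale, above the medians of all tested genes (0.11 and -0.10). All tested genes of chromosome 2 had medians of 0.36 and 0.15, and those within 5 Mb of Duox2 0.07 and -0.04. The untreated genotype ratio of Noxa1 was 0.972 (0.828 to 1.14). Whether the DNA around Noxa1 differs between the mice was not tested.

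Cyba (ENSMUSG00000006519; chromosome 8, 122424776 to 122432930, minus strand), the membrane partner, was found in every class, fibroblasts included. Its epithelial level was 193, 855, 462 and 685 CPM, and the 4 intervals did not overlap. TNF went with 4.42 times the level in wildtype (4.32 to 4.52) and 1.48 times in Tnfr2-/- (1.46 to 1.51). In Progenitor.2 of Tnfr2-/-, the TNF ratio was 1.01 (0.981 to 1.04), while in Progenitor.1 it was 1.75 (1.69 to 1.82). The goblet and deep-crypt class Secretory-Reg4-Spdef-Lyz1 had the lowest Cyba of untreated wildtype, 79.3 CPM, and 542 CPM with TNF. Fibroblasts were at 400, 424, 355 and 550 CPM, and the 0.08 TNF difference of wildtype fibroblasts, on the log2 scale, lay well under that of the wildtype epithelium (2.14). In the annotation a model named Gm20388 spans the whole of Cyba on the other strand, so the strand limit given for Noxo1 holds here too.

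**Figure D4:**
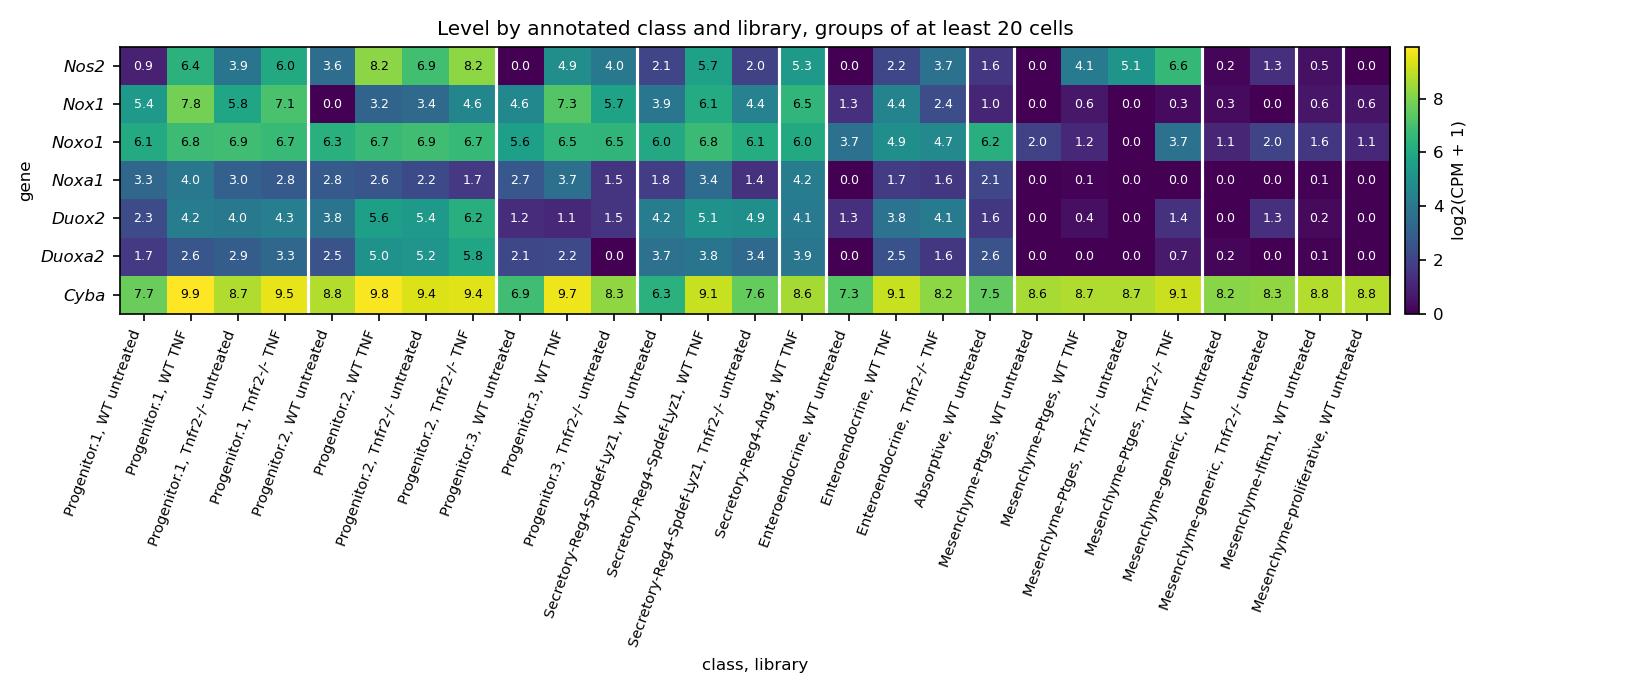
Level as log2(CPM + 1), by colour and printed number, of each gene (rows) in each class and library with at least 20 cells (columns, with white lines between classes). Nos2, Duox2 and Duoxa2 are highest in Progenitor.2 columns with TNF or without TNFR2, Nox1 is highest in Progenitor.1 of wildtype TNF, and Cyba is at 79.3 CPM or more in every column.

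Duox2 (ENSMUSG00000068452; chromosome 2, 122279247 to 122298449, minus strand) and its maturation factor Duoxa2 (ENSMUSG00000027225; chromosome 2, 122298900 to 122302885, plus strand) lie head to head, with 450 bases between their annotated starts. The windows from 250 bases before to 50 after the start of each gene were read from RefSeq on GRCm38.p6 and are shown because this pair moved together. Both are written 5' to 3' on the strand of the gene, and capitals mark matches on either strand to TATAAA, to TGANTCA (an AP-1 site, palindromic but for N), to AGATAA or to the NF-kB consensus, by name. The Duox2 window runs from 122298178 to 122298477 on the minus strand, from a RefSeq start that differs from the GENCODE start, and the Duoxa2 window, on the plus strand, from 122298650 to 122298949.
Duox2: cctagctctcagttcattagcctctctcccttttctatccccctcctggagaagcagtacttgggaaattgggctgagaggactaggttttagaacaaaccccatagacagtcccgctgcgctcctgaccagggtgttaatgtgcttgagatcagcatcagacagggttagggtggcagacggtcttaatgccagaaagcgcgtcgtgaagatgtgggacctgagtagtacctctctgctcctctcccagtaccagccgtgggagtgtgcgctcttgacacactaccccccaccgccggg
Duoxa2: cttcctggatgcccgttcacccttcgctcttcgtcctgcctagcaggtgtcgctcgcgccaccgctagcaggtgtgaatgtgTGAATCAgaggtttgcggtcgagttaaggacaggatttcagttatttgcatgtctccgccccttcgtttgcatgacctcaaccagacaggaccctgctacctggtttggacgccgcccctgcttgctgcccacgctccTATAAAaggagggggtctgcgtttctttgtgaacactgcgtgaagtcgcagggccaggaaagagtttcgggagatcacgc

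The Duoxa2 window held TATAAA from -30 and TGANTCA from -168, and the Duox2 window held none of the 4 motifs. The Duox2 window lies mostly inside the GENCODE gene, and the bases between the Duox2 and Duoxa2 windows were not searched. Of 32851 RefSeq windows of this length, 13.6% held TATAAA, 7.81% TGANTCA, 11.2% AGATAA and 8.46% the NF-kB consensus, so single matches are common. Windows were found for 6 of the 7 genes. Nos2 had none, so it was not searched for motifs. The NF-kB consensus was matched in Nox1 and Noxa1, and the Nox1 match, at -91, stands in capitals below, shown because Nox1 was higher with TNF within Progenitor.1 and Progenitor.2 of both genotypes (chromosome X, 134111805 to 134112104, minus strand, counted from a RefSeq start that lies inside the longer GENCODE gene).
Nox1: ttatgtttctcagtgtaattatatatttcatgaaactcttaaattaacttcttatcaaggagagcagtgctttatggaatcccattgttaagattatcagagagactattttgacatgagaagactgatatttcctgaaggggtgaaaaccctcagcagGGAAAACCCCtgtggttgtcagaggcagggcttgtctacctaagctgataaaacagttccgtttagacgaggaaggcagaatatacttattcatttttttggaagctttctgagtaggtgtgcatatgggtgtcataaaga
No binding was measured here, and a match says nothing of a factor's action.

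The epithelial level of Duox2 was 4.23, 28.0, 20.6 and 65.2 CPM, and that of Duoxa2 3.70, 14.8, 12.3 and 48.8 CPM. Both genes had the same order of libraries, with Tnfr2-/- TNF highest, then wildtype TNF, Tnfr2-/- untreated and wildtype untreated. With TNF, Duox2 was 6.61 times higher in wildtype (5.70 to 7.68) and 3.16 times in Tnfr2-/- (2.94 to 3.4), and Duoxa2 4.0 times (3.39 to 4.74, with both levels under 20 CPM) and 3.96 times (3.61 to 4.34). Progenitor.2 had the highest Duox2 of the classes with TNF or without TNFR2, at 47.5, 40.7 and 73.5 CPM, and the secretory class Secretory-Reg4-Spdef-Lyz1 was at 33.0 and 29.3 CPM in wildtype TNF and untreated Tnfr2-/-, next among classes of at least 20 cells. In wildtype untreated the same secretory class had 16.9 CPM of Duox2 and 12 CPM of Duoxa2. Progenitor.3 cells, in which Nox1 was high, had 1.17 to 1.88 CPM of Duox2 in the 3 libraries with at least 20 cells, from 1 or 2 UMIs.

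Within classes of Tnfr2-/-, the TNF differences of the Duox pair were smaller than over all epithelial cells. Duox2 had a TNF ratio of 1.81 in Progenitor.2 (1.63 to 2.01) and 1.2 in Progenitor.1 (0.951 to 1.49), and Duoxa2 of 1.58 (1.41 to 1.78) and 1.36 (0.971 to 1.87). In wildtype Progenitor.2 the ratios were 3.62 (2.37 to 5.82) and 6.73 (3.39 to 15.7), on 22 and 8 untreated UMIs. The share of Progenitor.2 cells with Duox2 after thinning was 7.14%, 23.0%, 19.1% and 28.4%, and with Duoxa2 5.36%, 14.1%, 12% and 18.2%. Duoxa2 was unevenly spread in Progenitor.2 of Tnfr2-/- TNF, with a highest cell of 155 UMIs. The top 10% of cells, ranked without thinning, held 66.7% of the Duoxa2 UMIs.

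The pair was also found together in single cells of Progenitor.2. Among thinned Progenitor.2 cells of Tnfr2-/- TNF, Duoxa2 was found in 39.6% of the 202 cells with Duox2 and in 9.65% of the 508 without. The shares were 38.7% of 62 and 6.73% of 208 in wildtype TNF and 34.9% of 43 and 6.59% of 182 in Tnfr2-/- untreated. Duox2 was likewise found in more cells with Nos2 than without, in 37.0% of 400 against 17.4% of 310 in Tnfr2-/- TNF, 27.2% of 162 against 16.7% of 108 in wildtype TNF and 25.3% of 79 against 15.8% of 146 in Tnfr2-/- untreated. In Progenitor.2 the order differed between libraries for Duox2 and Nox1. The 11, 11 and 52 cells with Nox1 had Duox2 in 9.09%, 36.4% and 26.9%, and the cells without in 23.6%, 18.2% and 28.6%. Noxo1 was found in more of these cells with Nox1 than of those without. The shares were 63.6% and 40.9% in wildtype TNF, 81.8% and 38.3% in Tnfr2-/- untreated and 46.2% and 33.6% in Tnfr2-/- TNF. Nox1 and Nos2 had no common order there, with Nox1 in 3.7%, 5.06% and 6.75% of cells with Nos2 and 4.63%, 4.79% and 8.06% without. In Progenitor.1, in which Nox1 is frequent and Duox2 rare, Duox2 was found with Nox1 more often than without in the same 3 libraries, in 11.3% of 212 against 7.32% of 123 cells in wildtype TNF, 14.4% of 125 against 5.97% of 519 in untreated Tnfr2-/- and 14.6% of 41 against 5.66% of 53 in Tnfr2-/- TNF. Wildtype untreated went the other way, with Duox2 in 0% of the 91 Progenitor.1 cells with Nox1 and 1.1% of the 455 without. The other pairs had no common order in Progenitor.1 of the same 3 libraries. Duoxa2 was found in 0% of the 33 Progenitor.1 cells with Duox2 and 3.31% of the 302 without in wildtype TNF, but in 4.08% of 49 and 1.51% of 595 in untreated Tnfr2-/- and in 22.2% of 9 and 4.71% of 85 in Tnfr2-/- TNF. Duox2 was found in 8.08% of the Progenitor.1 cells with Nos2 and 10.6% of those without in wildtype TNF, in 9.68% and 7.5% in untreated Tnfr2-/- and in 11.8% and 9.09% in Tnfr2-/- TNF. Cells of 1 library share their culture and are not replicates, so these shares describe the libraries only.

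**Figure D5:**
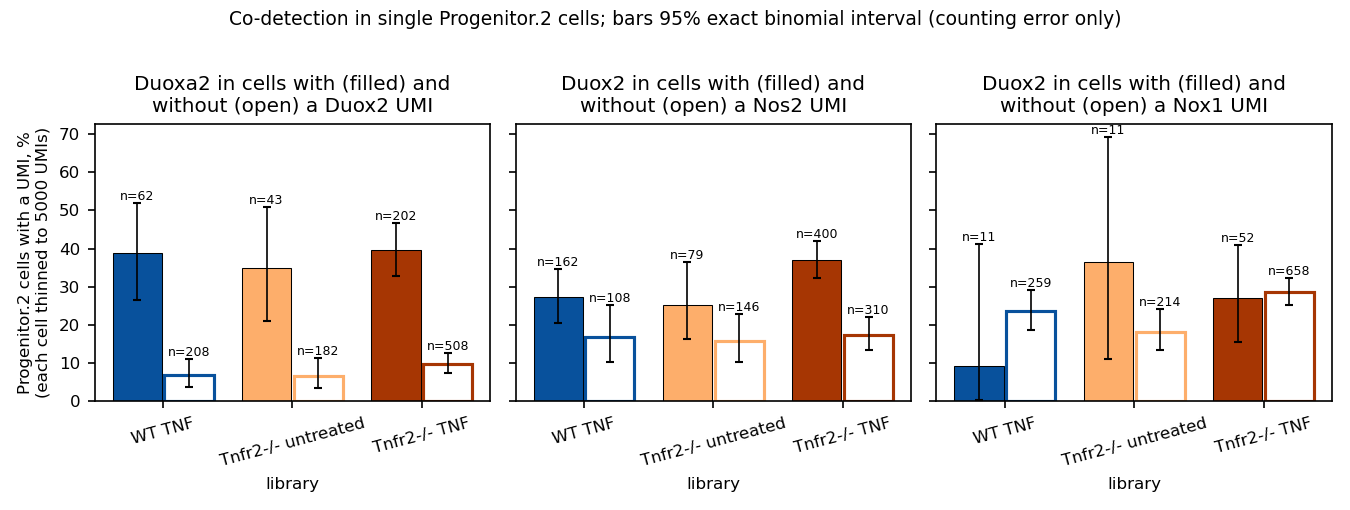
Share of Progenitor.2 cells with a UMI of the gene named first in each panel title on the y axis, among cells with (filled) and without (open) a UMI of the other gene, by library on the x axis; cells were thinned to 5000 UMIs, n is the number of cells and bars are 95% exact binomial intervals. Duoxa2 is found in 34.9% to 39.6% of cells with Duox2 and in 6.59% to 9.65% of the others.

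Counted by a common rule, a difference of at least 2-fold in log2(CPM + 1) where at least 1 of both libraries reached 20 CPM, the 7 members fell as follows over all epithelial cells. With TNF in wildtype, 4 of 5 tested members were higher (Nos2, Nox1, Duox2 and Cyba) and 0 lower, against 2.54% of 5833 tested genes higher and 1.08% lower. With TNF in Tnfr2-/-, 3 of 6 were higher (Nos2, Duox2 and Duoxa2) and 0 lower, against 5.55% and 7.81% of 6143 genes. In Tnfr2-/- relative to wildtype without TNF, 3 of 5 were higher (Nos2, Duox2 and Cyba) and 0 lower, against 2.42% and 3.59% of 6021 genes. Under TNF, 2 of 6 were higher in Tnfr2-/- (Duox2 and Duoxa2) and 1 lower (Nox1), against 5.04% and 6.37% of 6073 genes. The members were chosen with these contrasts known, so nothing is read from the counts against that background. Another scaling moved the background. With TMM factors the median TNF difference of all tested genes in Tnfr2-/- went from -0.12 to 0.05, and 61.2% rather than 41.5% of its called genes were higher. For the genotype difference under TNF the share went from 44.2% to 62.3%. With TMM factors 3 members instead of 2 were higher in Tnfr2-/- under TNF, as the Nos2 difference went from 0.90 to 1.06, and 2 instead of 3 were higher in untreated Tnfr2-/-, where Duox2, at 20.6 CPM, had been just above the minimum.

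Within Progenitor.1, 3 of 4 tested members were higher with TNF in wildtype (Nos2, Nox1 and Cyba), against 1.84% of all tested genes higher and 0.615% lower. With TNF in Tnfr2-/-, 2 of 4 were higher (Nos2 and Nox1), against 1.08% and 0.933%. Between the genotypes, 1 of 3 was higher in Tnfr2-/- without TNF (Cyba), against 1.15% and 1.1%, and 0 of 4 with TNF, against 1.29% and 2.04%. Within Progenitor.2, 4 of 5 were higher with TNF in wildtype (Nos2, Duox2, Duoxa2 and Cyba), against 4.28% and 3.18%. With TNF in Tnfr2-/-, 2 of 6 were higher (Nos2 and Nox1), against 0.844% and 1.14%. Between the genotypes, 3 of 5 were higher in Tnfr2-/- without TNF (Nos2, Duox2 and Duoxa2), against 4.32% and 3.66%, and 1 of 6 with TNF (Nox1), against 2.99% and 4.93%. In each of these class comparisons 0 members were lower. The genotype comparisons and the TNF comparisons share libraries, so their values are not independent of each other.

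Most other genes of the oxidase family were nearly silent in the epithelium. Nox3 had no UMI, and the oxidase subunits Nox4, Cybb and Duox1, the maturation factor Duoxa1, the phagocyte organizer Ncf1 and the leukocyte GTPase Rac2 were at 0.20 CPM or below in every library. Ncf4, a phagocyte subunit and also on the immune marker list, was at 0, 3.80, 0 and 0.25 CPM. BC017643 (Cybc1), a chaperone of the phagocyte oxidase, was at 8.66 to 10.9 CPM. Only Rac1, at 274, 251, 232 and 285 CPM, and Rac3, at 40.7, 41.5, 46.9 and 72.7 CPM, reached 20 CPM, and 0 of these 2 differed 2-fold in any comparison.

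Genes of nitric oxide and arginine handling were mostly under 2-fold changed. Of 21 listed genes, 13 or 14 were tested in a comparison, and 0 or 1 were higher and 1 or 2 lower. Most of all tested genes were under 2-fold changed too. Of them 2.54%, 5.55%, 2.42% and 5.04% were higher and 1.08%, 7.81%, 3.59% and 6.37% lower in the 4 comparisons. The median differences of the list were -0.15 and -0.13 with TNF in wildtype and Tnfr2-/-, beside 0.04 and -0.12 over all tested genes. The genotype medians were -0.45 untreated and -0.35 with TNF, beside 0.11 and -0.10. Among the genes that reached 20 CPM, 0 were 2-fold changed the same way in both pairs of a comparison. Gch1, which starts the synthesis of the Nos2 cofactor tetrahydrobiopterin, was the only one higher with TNF in Tnfr2-/- (57.6 to 118 CPM). Ass1, which helps to regenerate arginine, was the only one higher in Tnfr2-/- under TNF (19.6 to 60.8 CPM). These and the following lower ones were named after their values were seen: Ddah1, which degrades inhibitors of nitric oxide synthases, with TNF in wildtype (66.6 to 27.5 CPM) and in untreated Tnfr2-/- (29.3 CPM), Nostrin in untreated Tnfr2-/-, and Pts in Tnfr2-/- under TNF. Calm2, which binds the synthase, was among the most abundant genes of the list (495, 547, 491 and 429 CPM) and did not differ 2-fold.

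Few genes that remove peroxide or supply NADPH differed 2-fold. Of 18 tested peroxide genes, 1 was higher and 1 or 2 lower in each comparison, and of 8 tested genes of NADPH supply 0 were either. Few of all tested genes differed 2-fold as well, with 2.54%, 5.55%, 2.42% and 5.04% higher and 1.08%, 7.81%, 3.59% and 6.37% lower. Nothing particular to these lists is read from their counts. The medians of the peroxide genes were -0.10 and -0.40 with TNF in wildtype and Tnfr2-/-, and those of NADPH supply 0.19 and -0.30, beside 0.04 and -0.12 over all tested genes. Gpx2, the epithelial glutathione peroxidase, was at 1076, 2156, 2600 and 1453 CPM and met the 2-fold rule with TNF in wildtype, by a log2 difference of 1.00, and in untreated Tnfr2-/-. Txn1, thioredoxin, was at 2388, 2833, 1847 and 1076 CPM and was lower in Tnfr2-/- under TNF. The pentose phosphate enzymes Taldo1 (509, 427, 452 and 385 CPM) and Tkt (477, 412, 380 and 308 CPM) were lowest in Tnfr2-/- TNF, without a 2-fold difference.

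Among known targets of NRF2, the factor that answers oxidative stress, 7 of 10 were tested, and 3, 2, 3 and 1 were higher in the 4 comparisons with 0 lower. Of all tested genes, 2.54%, 5.55%, 2.42% and 5.04% were higher. Hmox1, heme oxygenase 1, was at 10.1, 23.5, 23.3 and 100 CPM and was higher in all 4 comparisons. Slc7a11, the cystine importer, was at 9.97, 39.7, 34.1 and 77.1 CPM and was higher with TNF in both genotypes. Gclm (173, 201, 190 and 141 CPM) and Txnrd1 (114, 140, 133 and 138 CPM), the most abundant of the list, differed less than 2-fold. The medians of the list were 0.51 and 0.12 with TNF and 0.80 and 0.31 for genotype, where those of all tested genes were 0.04, -0.12, 0.11 and -0.10.

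Of 12 transcription factors known to act on Nos2, 10 to 12 were tested. With TNF in wildtype Nfkb2 and Relb were higher, and with TNF in Tnfr2-/- 0 were higher, against 2.54% and 5.55% of all tested genes. Nfkbiz, a nuclear cofactor of NF-kB, was at 15.8, 23.7, 38 and 50 CPM and was higher in Tnfr2-/- at either treatment. The most abundant of the list, Hif1a (183, 155, 136 and 93.9 CPM) and Cebpb (49.2, 47.6, 86.3 and 87.0 CPM), did not differ 2-fold. The medians of this list were 0.51 and 0.31 with TNF and 0.72 and 0.28 for genotype. Of 10 mucosal defence genes, 4 were tested with TNF in wildtype and 6 in the other comparisons, of which 1, 3, 2 and 2 were higher and 2, 0, 3 and 1 lower, with medians of -0.55, 1.08, -0.09 and 0.34. The shares over all tested genes were 2.54%, 5.55%, 2.42% and 5.04% higher and 1.08%, 7.81%, 3.59% and 6.37% lower. Lcn2, which withholds iron from bacteria, was at 2.44, 5.80, 21.3 and 69.3 CPM, and Saa3 at 15.2, 47.8, 69.4 and 427 CPM, both with Tnfr2-/- TNF highest and wildtype untreated lowest, as for Duox2. Lypd8, which keeps bacteria off the epithelium, was lower in Tnfr2-/- at either treatment (5620, 2470, 675 and 904 CPM), and Saa1 was at 875, 234, 91.9 and 327 CPM.

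Genes whose level ran most like a member were sought among 10112 genes over 27 class and library groups of at least 20 cells, as Pearson r of log2(CPM + 1). The groups share libraries and depth, so r describes likeness only. For Nos2 the nearest were Gabrp (0.842), Ctnnb1 (0.841), Pgk1 (0.818), Pkm (0.818) and Egln3 (0.816), of which Pgk1 and Pkm encode glycolytic enzymes, Egln3 an oxygen-sensing prolyl hydroxylase and Ctnnb1 beta-catenin. For Nox1 they were Aqp4 (0.961), Clca3b (0.941), Cldn2 (0.920), Ppp1r1b (0.890) and Smoc2 (0.887), which include a water channel and a claudin of the crypt. For Duox2 they were Pdgfb (0.910), Duoxa2 (0.908), Tnf (0.908), Nectin2 (0.895) and Ly6e (0.893). Tnf, the gene of the cytokine itself, was at 12.5, 59.6, 40.9 and 71.7 CPM in the epithelium, and the mesenchymal cells had 0.603, 1.36, 3.22 and 6.08 CPM. Among the members, r was 0.827 between Nox1 and Noxa1, 0.628 between Nos2 and Duox2 and 0.407 between Nos2 and Nox1.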

How the data were processed

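Single cells of 4 colonoid cultures (wildtype and Tnfr2-/-, untreated and TNF) were measured with 10x 3' libraries. The authors deposited 1 matrix of raw UMI counts for 6155 cells. Per the submitters' processing notes it was made with Cell Ranger 5.0.0 and mm10, and per the study cells with fewer than 100 UMIs and epithelial-mesenchymal doublets were removed in monocle3. The size factors and plotting coordinates that the authors deposited were not used. No source used here states the strand setting. The labels and the study's methods differ on the age of the mice and the sequencer, and the labels are followed. The 35 cells without a class entered no comparison, and 3 barcodes occurred in 2 libraries.

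The members and gene lists were chosen with earlier results of these data known. UMIs were summed by library and by deposited class (Leiden clusters named by the authors) and scaled to CPM. Differences are of log2(CPM + 1), called at 2-fold where 1 of both libraries reached 20 CPM; the pseudocount understates changes of low genes. Ratios are of CPM, with exact binomial intervals. Shares of cells carry Clopper-Pearson intervals after thinning to 5000 UMIs (seed 11), which left out 405 cells. With UMIs, intervals and limits at 0 (3 counts) cover counting error only. At 1 library per group no test was made.

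Besides the members, the text names all other oxidase genes, the marker genes, the 2 most abundant genes of each other list with up to 6 changed the same way in both pairs of a comparison, and the 5 genes most like Nos2, Nox1 and Duox2 by Pearson r. Genes outside this rule were chosen after their values were seen. Results of some genes that the rule covers are not reported here. Positions are from GENCODE M21 by gene identifier. The calls were tested on simulated counts with changes larger than 2-fold. These counts held counting error only, so differences between cultures were not covered. Scrublet (scanpy 1.11.5, expected rate 6% per library) called 44 cells (0.715%), which stayed in except in an alternative; the study had removed doublets. Alternatives used other pseudocounts, TMM (edgeR 4.0.16), median-of-ratios factors, cell sets and weights. Python 3.11.15, numpy 2.4.6 and scipy 1.17.1 were used.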

Additional observations from a re-analysis of the deposited data

Results flagged for a closer look

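Several members went opposite ways in the genotypes or treatments compared. With 1 library per group none of these differences was tested, and the intervals cover counting error only. Over all epithelial cells, Nox1 was higher with TNF in wildtype and lower in Tnfr2-/-, and the TNF difference in Tnfr2-/- minus that in wildtype was -2.557 on the log2(CPM + 1) scale. Within the classes Nox1 did not go opposite ways. In Tnfr2-/- it was 2.39 times higher with TNF in Progenitor.1 and 2.30 times higher in Progenitor.2. Over all epithelial cells the TNF difference in Tnfr2-/- minus that in wildtype was -0.8053 for Noxo1 and -1.608 for Noxa1, and within the classes it was -0.8857 for Noxo1 in Progenitor.1 and -0.6329 in Progenitor.2. The TNF ratio of Noxa1 in Progenitor.1 was 1.70 in wildtype (1.42 to 2.03) and 0.841 in Tnfr2-/- (0.560 to 1.22). In Progenitor.2 it was 0.874 (0.446 to 1.91) and 0.596 (0.394 to 0.914), so Noxa1 had no clear opposite direction within the classes. Read as the genotype difference with TNF minus that without, Nox1 (-2.557) and Noxo1 (-0.8053) turned from higher in untreated Tnfr2-/- to lower under TNF, and Cyba did likewise over all epithelial cells (-1.57), in Progenitor.1 (-1.455) and in Progenitor.2 (-1.03). In Progenitor.1 the genotype difference of Nos2 (-3.335) and Nox1 (-1.226) turned too. In Progenitor.2 that of Nox1 did not turn, with Tnfr2-/- higher both untreated (9.79 against 0 CPM) and with TNF (22.5 against 8.12 CPM). The sign of Noxo1 under TNF depended on the scaling, as given below.

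The 35 cells to which the annotation gave no class entered no comparison, and members were found in them. The 31 such cells of wildtype untreated had 4 UMIs of Nos2, 56 of Nox1, 114 of Noxo1, 8 of Noxa1, 11 of Duox2, 4 of Duoxa2 and 503 of Cyba. The 4 such cells of untreated Tnfr2-/- had 4 UMIs of Nox1, 32 of Noxo1 and 103 of Cyba.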

How the results depend on the processing

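Each difference rests on 1 library per group, so a library could not be left out. No paired analysis was possible because each group holds 1 sample. Of 88 alternative member counts, 84 stayed within 1.5 times the reported count. Of the others, the 2 members higher in Tnfr2-/- under TNF became 1 with a pseudocount of 10 CPM and 0 with Progenitor.1 and Progenitor.2 given equal weight. The 1 member lower became 2 with no minimum on expression and 0 with equal weight. Of 308 member differences, 111 moved beyond their counting interval. Few changed sign: Noxo1 in Tnfr2-/- under TNF went from -0.08 to 0.08 with TMM, 0.07 with median-of-ratios factors and 0.21 over all cells. With equal weight, Nox1 with TNF in Tnfr2-/- went from -0.26 to 1.22 and Nos2 between the genotypes under TNF from 0.90 to -0.06. Noxa1 between the untreated genotypes went from -0.04 to 0.53 over all cells, fibroblasts included. Of 616 list counts, 80 moved by over 1.5 times. Of 168 shares of cells, 115 moved by more than their interval, 66 of 84 of them without thinning and 49 of 84 at 2000 UMIs. Depth limits Noxa1, and every member in wildtype untreated Progenitor.2 (62 cells).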
